A study of Mus musculus with 20 samples.

Results

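CD8 T cells of the wild-type genotype were compared between an anti-PD-L1 library, from a group given an antibody that blocks a ligand of PD-1, and an untreated library. The labels used here give no number of mice or tumours behind a library. Cells were chosen by their own counts of unique molecular identifiers (UMIs, each marking 1 captured RNA molecule). A CD8 T cell had at least 3 UMIs of the CD3 genes Cd3d, Cd3e and Cd3g, at least 1 of Cd8a or Cd8b1, fewer than 5 of the macrophage genes C1qa, C1qb, C1qc and Lyz2, and fewer than 10 of the melanocyte genes Mlana, Pmel, Dct and Tyrp1. The rule gave 1085 of the 2297 filtered cells of the untreated library (47.2%) and 1297 of the 1603 of the anti-PD-L1 library (80.9%), in all 2382 of the 3900 wild-type cells. By the same rule 4930 of the 7398 filtered cells in the 4 single-cell libraries of the series were CD8 T cells.

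Every group carried transferred CD8 T cells of OT-I mice, whose transgenic receptor recognises a peptide of chicken ovalbumin, in mice with B16-OVA, a B16 melanoma line that makes ovalbumin. The source was labelled CD8+ TILs, tumour-infiltrating lymphocytes, taken 8 days after transfer, although the tables also held melanoma-like and macrophage-like cells. The wild-type groups differed in anti-PD-L1 alone, as far as the labels say, and the knockout groups used for comparison had T cells from Tet2-/- OT-I mice, with and without the antibody. The 8 RNA and 8 ATAC sequencing samples of the series were not analysed here. Each group was 1 library, so no difference below has a replicate check, no p-value is given, and the 95% intervals in brackets cover counting error only.

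PD-1 is a receptor that activated T cells place on their surface, and binding of PD-L1 recruits phosphatases that weaken signals from the T cell receptor and from CD28. The T cell receptor acts through calcium and NFAT, through MAP kinases and AP-1, and through NF-kB. CD8 T cells stimulated for long in a tumour keep a progenitor pool that expresses the transcription factor TCF-1, encoded by Tcf7, and give rise to effector and exhausted cells that carry granzymes, chemokines and inhibitory receptors.

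The CD8 T cells held 4734345 UMIs without treatment and 8139775 with anti-PD-L1, with medians of 3811 and 5480 UMIs and 1457 and 1707 genes per cell. Levels are given as CPM, a gene's UMIs summed over these cells and scaled to a total of 1000000, always with the untreated library first. A log2 fold is the log2 of the treated over the untreated CPM. Genes of the CD3 and CD8 rule defined the cells and are no result. A UMI of the macrophage genes of the rule was in 9.31% and 9.41% of CD8 T cells, and one of the melanocyte genes in 31.6% and 9.18%. Melanoma-like cells numbered 770 in the untreated library and 49 in the treated one, and the melanocyte genes summed to 90.4 and 16.8 CPM in CD8 T cells. Of 15 macrophage and monocyte markers, whose summed level was 1162 and 3140 CPM, Csf1r and Adgre1 were at 0 UMIs without treatment, and Ly6c2, Ccr2 and Plac8, which T cells also express, held most of the sum. Erythroid genes summed to 146 and 667 CPM and gamma delta T cell genes to 94.4 and 234 CPM. B and plasma cell genes summed to 302 and 174 CPM and dendritic cell genes to 306 and 152 CPM, so these sums were lower with treatment. The 6 markers of CD4 and regulatory T cells summed to 217 and 453 CPM, and the 6 natural killer markers to 83.6 and 132 CPM, with Ncr1 and Klra8 at 0 in both. The part of these other cells in the results was not tested.

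The untreated wild-type library was more often at an end of the 4 libraries than the knockout libraries were. Over all 4628 genes past the floor of 20 CPM described below, it was the lowest of the 4 for 26.4% and the highest for 51.6%. The wild-type library with anti-PD-L1 was lowest for 46.1% and highest for 16.7%, the untreated knockout library for 15.1% and 13.5%, and the knockout library with anti-PD-L1 for 12.5% and 18.2%. That floor was set on the wild-type libraries alone. With 1 untreated wild-type library, treatment cannot be told apart from any other difference of that library. A UMI of a Y-linked gene was in 11.1% and 14.5% of wild-type CD8 T cells and one of Xist, the X-inactivation RNA, in 68.7% and 71.7%, with both in 5 and 18 cells, whereas Y-linked UMIs were in 0.131% of untreated knockout cells. The OT-I receptor pairs the V segments Trav14 and Trbv12. Of wild-type cells with a UMI of any Trbv segment, 12 of 12 without treatment and 34 of 35 with it had Trbv12, while Trav14 was in 1 of 15 and 5 of 50 cells with a Trav UMI. The libraries shared 4 cell barcodes, 3 of them among CD8 T cells.

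The CD8 threshold had more cells beside it than the CD3 threshold. Among otherwise eligible cells, 8 untreated and 3 treated ones had a CD3 sum of 2, just outside, and 19 and 4 a sum of 3, just inside. No CD8 UMI was found in 37 and 21 otherwise eligible cells, and exactly 1 in 91 and 19.

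More genes were lower than higher with anti-PD-L1 before TMM scaling, a rescaling between libraries, and about as many after it. A gene was called higher or lower when its mean over both wild-type libraries was at least 20 CPM and its levels differed at least 1.5-fold. This contrast was picked for its differences, so the counts describe it. Of 4628 genes past that floor, 503 were higher (10.9%) and 990 lower (21.4%), and the median gene had a log2 fold of -0.19. Those shares are the background for the counts of list members in all wild-type CD8 T cells below. TMM, which sets the bulk of genes near a log2 fold of 0, moved the median by 0.14 to -0.06 and gave 648 higher and 647 lower. The plot of levels shows both tails, with Gzma the highest fold of all genes past the floor and Id3 the lowest.

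**Figure D1:**
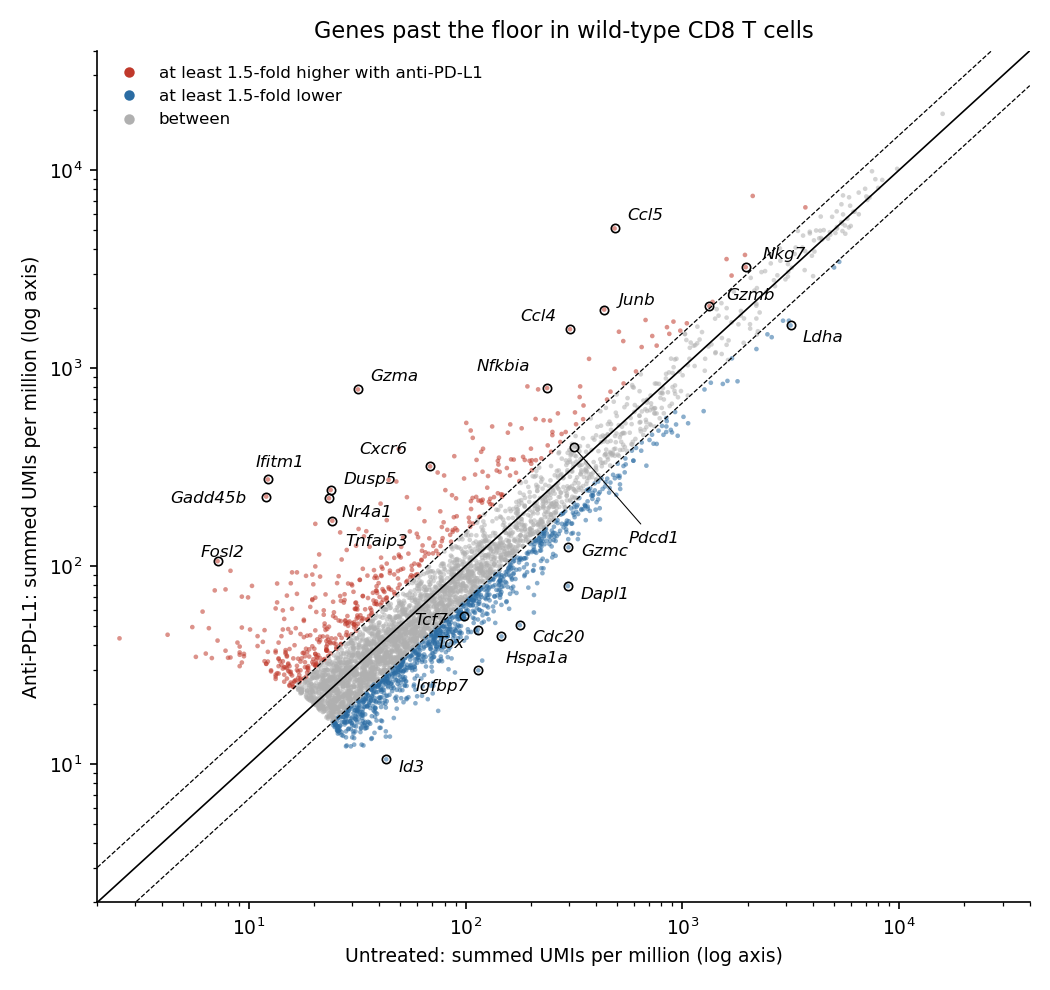
Level of each of the 4628 genes past the floor in untreated (x axis) and anti-PD-L1 (y axis) wild-type CD8 T cells, in CPM on log axes, 1 point per gene; the solid line marks equal levels and the dashed lines 1.5-fold. Gzma, Ifitm1, Gadd45b and Ccl5 lie far above the line and Id3, Dapl1 and Cdc20 below it, while Pdcd1 lies between the dashed lines.

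Immediate early genes, transcription factors and feedback regulators that cells make within minutes to hours of a signal, were higher with anti-PD-L1. Of 17 AP-1 and immediate early genes past the floor, 14 were higher and 1 was lower, with a median log2 fold of 1.70. Gadd45b, a stress sensor that feeds the p38 pathway, stood at 12 and 224 CPM, log2 fold 4.22 (3.84 to 4.63). Fosl2, a FOS family subunit of AP-1, stood at 7.18 and 106 CPM, log2 fold 3.88 (3.39 to 4.42), and its relative Fosb at 2.53 and 43.1 CPM, log2 fold 4.09 (3.27 to 5.05). Junb, which pairs with FOS proteins, stood at 436 and 1973 CPM, log2 fold 2.18 (2.11 to 2.24). Jund had a log2 fold of 1.58, Fos of 1.77 and Jun of 0.38, so the family differed by unequal amounts and Jun was within 1.5-fold. Batf, the AP-1 partner that works with IRF4 in effector T cells, was the member called lower, at 96.1 and 58 CPM, log2 fold -0.73 (-0.92 to -0.54).

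The difference in these genes spanned the population. With every cell thinned to 2500 UMIs, which left out 171 untreated and 60 treated cells, a cell held a median of 4 UMIs of the AP-1 and immediate early list without treatment and 15 with it. The 90th percentile of untreated cells was 8 UMIs and the 10th percentile of treated cells 7. Junb alone was found in 54.7% (51.4 to 58) of untreated and 91.5% (89.8 to 93) of treated thinned cells, 68.2% and 97% unthinned, and 53.8% and 97.3% of macrophage-like cells. Macrophage-like cells, 117 untreated and 111 treated ones when thinned the same way, express Junb themselves, so they cannot serve to estimate its background. They had median depths of 2957.5 and 5363 UMIs before thinning, and a share of 0% in them allows up to 2.56% and 2.70%.

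Macrophage-like cells showed the same list higher between the libraries, at a median log2 fold of 1.57, with 16 of its members at least 1.5-fold higher against 12.5% of all genes. Those values rest on 156 and 121 cells. Melanoma-like cells had a median log2 fold of 0.15. In the Tet2 knockout contrast, whose libraries are separate, the median log2 fold was 0.19 and 2 members were higher, against 2.74% of all genes. The part of handling or library in these genes was not tested.

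Most genes that report T cell receptor signalling were higher as well. Of 22 such genes past the floor, 13 were higher and 0 lower. Their median log2 fold was 1.04 in all cells and 1.29 in non-mitotic cells, those with fewer than 4 UMIs of Mki67, Top2a, Birc5, Ube2c, Cenpf and Ccna2. Nr4a1, the nuclear receptor Nur77 induced by receptor signalling, stood at 23.4 and 219.8 CPM, log2 fold 3.23 (2.95 to 3.52). It was found in 5.47% (4.09 to 7.15) of untreated and 34.8% (32.2 to 37.6) of treated thinned cells, 8.29% and 55% unthinned, and 4.27% and 25.2% of macrophage-like cells. Nr4a3 had a log2 fold of 1.84 (1.42 to 2.30) and Nr4a2 of 1.39. Each Nr4a receptor was also higher within mitotic cells, at log2 folds of 2.58, 1.30 and 1.73 for Nr4a1, Nr4a2 and Nr4a3. Macrophage-like cells had a median log2 fold of 0.81 for the same list, with 12 members higher and 5 lower. Of all genes, 12.5% were higher and 25.6% lower in those cells, and lower counts there include any gene with 0 UMIs in both libraries. The knockout contrast had 0.17 with 2 higher, where 2.74% of all genes were higher. The part of handling or library in this list was not tested.

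Dual specificity phosphatases, which switch off MAP kinases, were not uniform. Dusp5, which acts on ERK in the nucleus, stood at 23.9 and 242 CPM, log2 fold 3.34 (3.07 to 3.63), and Dusp2 at 161 and 519 CPM, log2 fold 1.69 (1.58 to 1.80). Dusp1 had a log2 fold of 1.58, while Dusp4 and Dusp6, at log2 folds of 0.53 and 0.58, were within 1.5-fold. Cd69, an early activation marker that holds T cells in tissue, had a log2 fold of 1.43 (1.24 to 1.63) and Il2ra, the high-affinity chain of the IL-2 receptor, of 1.03 (0.74 to 1.33). Cd44, Cd5 and Nfatc1 were within 1.5-fold, at log2 folds of 0.30, 0.40 and 0.08, so not all genes of the list stood higher.

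Several feedback inhibitors of NF-kB were higher, while 3 of its 5 subunits were within 1.5-fold. Of 15 genes past the floor, 9 were higher, 6 within 1.5-fold and 0 lower, with a median log2 fold of 0.66. Nfkbia, the inhibitor IkBa, stood at 238 and 792 CPM, log2 fold 1.74 (1.64 to 1.83). Tnfaip3, the ubiquitin-editing enzyme A20, stood at 24.3 and 169 CPM, log2 fold 2.80 (2.53 to 3.09). Zc3h12a, the RNase regnase-1 that degrades cytokine and receptor transcripts, stood at 4.22 and 45 CPM, log2 fold 3.41 (2.76 to 4.14). The inhibitor genes Nfkbid, at a log2 fold of 3.28 (2.81 to 3.80), and Nfkbiz, at 1.44, were higher as well. Among subunits, Rel, the c-Rel subunit of lymphocytes, stood at 26.4 and 148 CPM, log2 fold 2.48 (2.22 to 2.76), and Nfkb1 had a log2 fold of 0.82. Rela, Relb and Nfkb2 had log2 folds of -0.07, 0.21 and -0.20. In macrophage-like cells the list's median log2 fold was 0.87 with 10 members higher, where 12.5% of all genes were. In the knockout contrast the median was 0.23 with 2 higher, where 2.74% of all genes were.

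Promoters of 3 of these genes are shown because the genes were higher together and hold the kB motif bound by NF-kB: GGG, 2 bases of any kind and then TTTCC, on either strand within the 250 bases before the transcription start. RefSeq promoters on GRCm38.p6 were matched for 12 of the 15 genes, and 4 of them had the motif, namely Nfkbia, Rel, Tnfaip3 and Nfkb2. It was in 1.65% of all genes with a promoter in the table, 1.77% of genes past the floor, 3.9% of the higher and 1.27% of the lower ones. A match describes letters and says nothing of binding. The AP-1 motif, TGA and TCA with 1 base of any kind between them, was in 8.57% of the higher genes, 3.93% of the lower and 4.46% of those past the floor, but also in 7.82% of all genes in the table. It was in the promoters of 1 of 16 matched genes of the AP-1 and immediate early list. Each sequence runs 5′ to 3′ on the gene's strand, the minus strand for all 3, with the kB match in capitals, and the match begins 29, 12 and 91 bases before the start site.
Nfkbia, chr12:55492648-55492897: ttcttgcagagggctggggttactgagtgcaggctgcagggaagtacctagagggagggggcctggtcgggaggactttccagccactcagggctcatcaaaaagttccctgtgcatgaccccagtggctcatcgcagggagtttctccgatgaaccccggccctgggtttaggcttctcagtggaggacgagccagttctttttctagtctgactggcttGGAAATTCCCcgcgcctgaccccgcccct
Tnfaip3, chr10:19015411-19015660: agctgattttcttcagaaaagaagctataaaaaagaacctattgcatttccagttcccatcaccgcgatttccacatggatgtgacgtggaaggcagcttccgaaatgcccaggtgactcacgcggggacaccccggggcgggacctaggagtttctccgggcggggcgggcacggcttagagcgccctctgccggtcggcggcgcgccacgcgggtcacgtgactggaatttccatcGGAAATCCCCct
Rel, chr11:23770970-23771219: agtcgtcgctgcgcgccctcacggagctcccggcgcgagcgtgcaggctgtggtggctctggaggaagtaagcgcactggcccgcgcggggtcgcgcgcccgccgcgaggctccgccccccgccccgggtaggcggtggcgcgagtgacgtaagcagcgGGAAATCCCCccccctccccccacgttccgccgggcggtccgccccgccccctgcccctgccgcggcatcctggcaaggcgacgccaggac

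**Figure D2:**
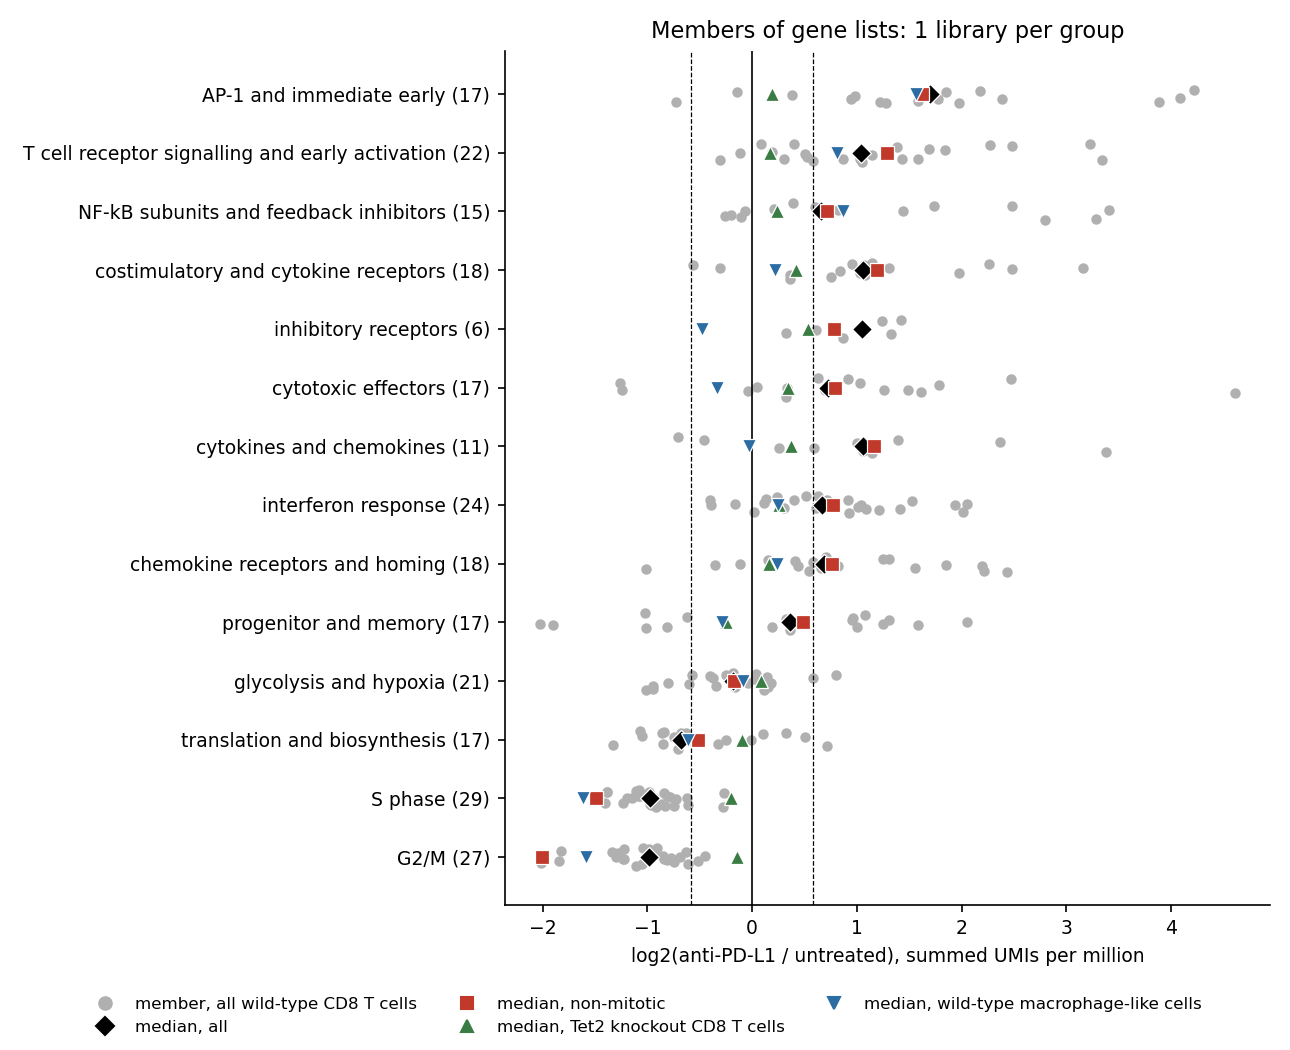
Log2 fold (x axis) of the members of 14 gene lists past the floor, number in brackets, in all wild-type CD8 T cells (grey points), with the list's median there (black), in non-mitotic cells (red), in the knockout contrast (green) and in wild-type macrophage-like cells (blue); dashed lines mark 1.5-fold. The AP-1 medians of T cells and macrophage-like cells lie close together at 1.70 and 1.57. The cytotoxic medians are 0.72 and -0.33, but few macrophage-like cells held Gzma, Gzmb or Nkg7. A gene with 0 UMIs in both libraries of macrophage-like cells was set at -0.61.

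Cytotoxic genes were mostly higher, with granzyme genes split. Of 17 effector genes past the floor, 11 were higher and 2 lower, with a median log2 fold of 0.72. Gzma, the tryptase granzyme A (chr13:113093824-113100981, GRCm38.p6), stood at 31.9 (27 to 37.4) and 779 (760.2 to 799) CPM, log2 fold 4.61 (4.38 to 4.85). A Gzma UMI was found in 3.501% (2.41 to 4.91) of untreated and 27% (24.5 to 29.6) of treated thinned cells, 5.25% and 31.7% unthinned, and 0% and 0.901% of macrophage-like cells. Gzmk, of the same gene cluster, stood at 9.08 and 31.2 CPM, log2 fold 1.78 (1.31 to 2.28). Gzmb, the granzyme that activates caspases, stood at 1333 (1299.9 to 1366) and 2055 (2024 to 2086) CPM, log2 fold 0.62 (0.58 to 0.67). UMIs of Gzmb were in 45.7% (42.5 to 49) of untreated and 64.6% (61.9 to 67.3) of treated thinned cells, 49.2% and 71.9% unthinned, and 2.56% and 3.604% of macrophage-like cells. Granzymes A, B and K were thus higher by unequal amounts, Gzma in a minority of cells and Gzmb in most treated ones.

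Gzmc and Gzmf, neighbours of Gzmb that appear in strongly activated T cells, were lower. Gzmc stood at 298 and 124 CPM, log2 fold -1.26 (-1.38 to -1.14), and 1 untreated cell held 132 of its 1412 UMIs. It was found in 10.3% (8.39 to 12.4) of untreated and 7.52% (6.11 to 9.13) of treated thinned cells, 11% and 10.02% unthinned, and 0.855% and 0.901% of macrophage-like cells. Gzmf stood at 77.9 and 33 CPM, log2 fold -1.24 (-1.47 to -1.01), with 1 untreated cell holding 70 of 369 UMIs, and without the highest cell of each library its log2 fold was -1.12. Over cells with no UMI of the melanocyte or macrophage genes of the rule the log2 fold of Gzmf was -2.43, and over cells with Xist and no Y-linked UMI -0.91, so its size differed by more than 1.5-fold between choices of cells. Both went the other way in the knockout contrast, at log2 folds of 1.33 (1.06 to 1.61) and 0.79 (0.13 to 1.48). Prf1, encoding perforin, was below the floor at 20.9 and 16.3 CPM, log2 fold -0.36 (-0.74 to 0.03), an interval that includes 0.

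Fasl, the death ligand, stood at 16.7 and 92.9 CPM, log2 fold 2.48 (2.14 to 2.83). Serpinb9, which inhibits granzyme B inside the killer cell, stood at 112 and 343 CPM, log2 fold 1.61 (1.48 to 1.75). The receptor genes Klrd1 and Klrc1, encoding CD94 and NKG2A, had log2 folds of 1.26 and 1.49. Nkg7, a granule protein, stood at 1958 and 3229 CPM, log2 fold 0.72 (0.69 to 0.76), and was found in 97.6% (96.4 to 98.5) of untreated and 98.4% (97.5 to 99) of treated thinned cells, 99.2% and 99.6% unthinned, and 5.98% and 2.703% of macrophage-like cells. Nkg7 thus differed in amount per cell, with thinned medians of 4 and 8 UMIs, and hardly in the share of cells. The whole cytotoxic list had a median of 12 UMIs per thinned cell without treatment and 25 with it.

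Chemokine genes were higher, most of all Ccl5. Of 11 cytokine and chemokine genes past the floor, 8 were higher and 1 lower. Their median log2 fold was 1.06 in all cells, 1.17 in non-mitotic and 0.11 in mitotic cells. Ccl5, which attracts T cells and monocytes (chr11:83525778-83530518), stood at 487 (467 to 507) and 5067 (5018 to 5116) CPM, log2 fold 3.38 (3.32 to 3.44). UMIs of Ccl5 were in 34.7% (31.6 to 37.9) of untreated and 72.9% (70.3 to 75.4) of treated thinned cells, 41.6% and 82.7% unthinned, and 22.2% and 50.5% of macrophage-like cells. Macrophage-like cells can make Ccl5, but it was also in 13.4% of untreated melanoma-like cells, and the part of free RNA in these shares was not tested. The median thinned CD8 T cell had 0 UMIs of Ccl5 without treatment and 6 with it, and 8.64% and 52.4% of cells had at least 5.

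Ccl4, the MIP-1β gene, stood at 303 and 1569 CPM, log2 fold 2.37 (2.29 to 2.45), with a log2 fold of 0.82 in mitotic cells and 2.70 in non-mitotic ones. Ccl3 had a log2 fold of 1.15 (1.05 to 1.24), with -0.14 in mitotic and 1.55 in non-mitotic cells. Both chemokines thus differed mainly outside the mitotic cells. Xcl1, which attracts cross-presenting dendritic cells, stood at 726 and 1451 CPM, log2 fold 0.998 (0.94 to 1.05), and was found in 43.4% (40.2 to 46.7) of untreated and 41.9% (39.1 to 44.7) of treated thinned cells, 48.4% and 51.3% unthinned, and 2.56% and 0.901% of macrophage-like cells. The 10% of cells with most Xcl1 held 63.1% of its UMIs without treatment and 83.8% with it, so its higher level lay in high cells. Ifng, encoding interferon-γ, stood at 144 and 299 CPM, log2 fold 1.06 (0.93 to 1.18), with 1 treated cell holding 235 of 2433 UMIs. With the second listing of most barcodes, those with 1 hyphen, the log2 fold of Ifng was 0.61. Ifng was found in 18.1% (15.6 to 20.7) of untreated and 23.3% (21 to 25.7) of treated thinned cells, 23.3% and 34.2% unthinned, and 0.855% and 0% of macrophage-like cells. Tgfb1 had a log2 fold of 1.17, while Spp1, osteopontin, was lower at 705 and 433 CPM, log2 fold -0.70 (-0.77 to -0.63).

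Gzma and Ccl5 were often found in the same cells. In treated thinned cells, 95.2% of those with Gzma had Ccl5 (92.3 to 97.2, exact binomial) and 64.7% of those without. In the untreated library the shares were 59.4% (40.6 to 76.3) and 33.8%, from 32 cells with Gzma. Ifitm1, an interferon-induced membrane protein, had the log2 fold next to that of Gzma, 4.48 (4.11 to 4.88), from levels of 12.3 and 274 CPM. UMIs of Ifitm1 were in 1.53% (0.840 to 2.56) of untreated and 17.5% (15.4 to 19.7) of treated thinned cells, 1.57% and 20.7% unthinned, and 0.855% and 6.31% of macrophage-like cells. Of treated cells with Ifitm1, 59.7% had Gzma, against 20.1% of those without.

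**Figure D3:**
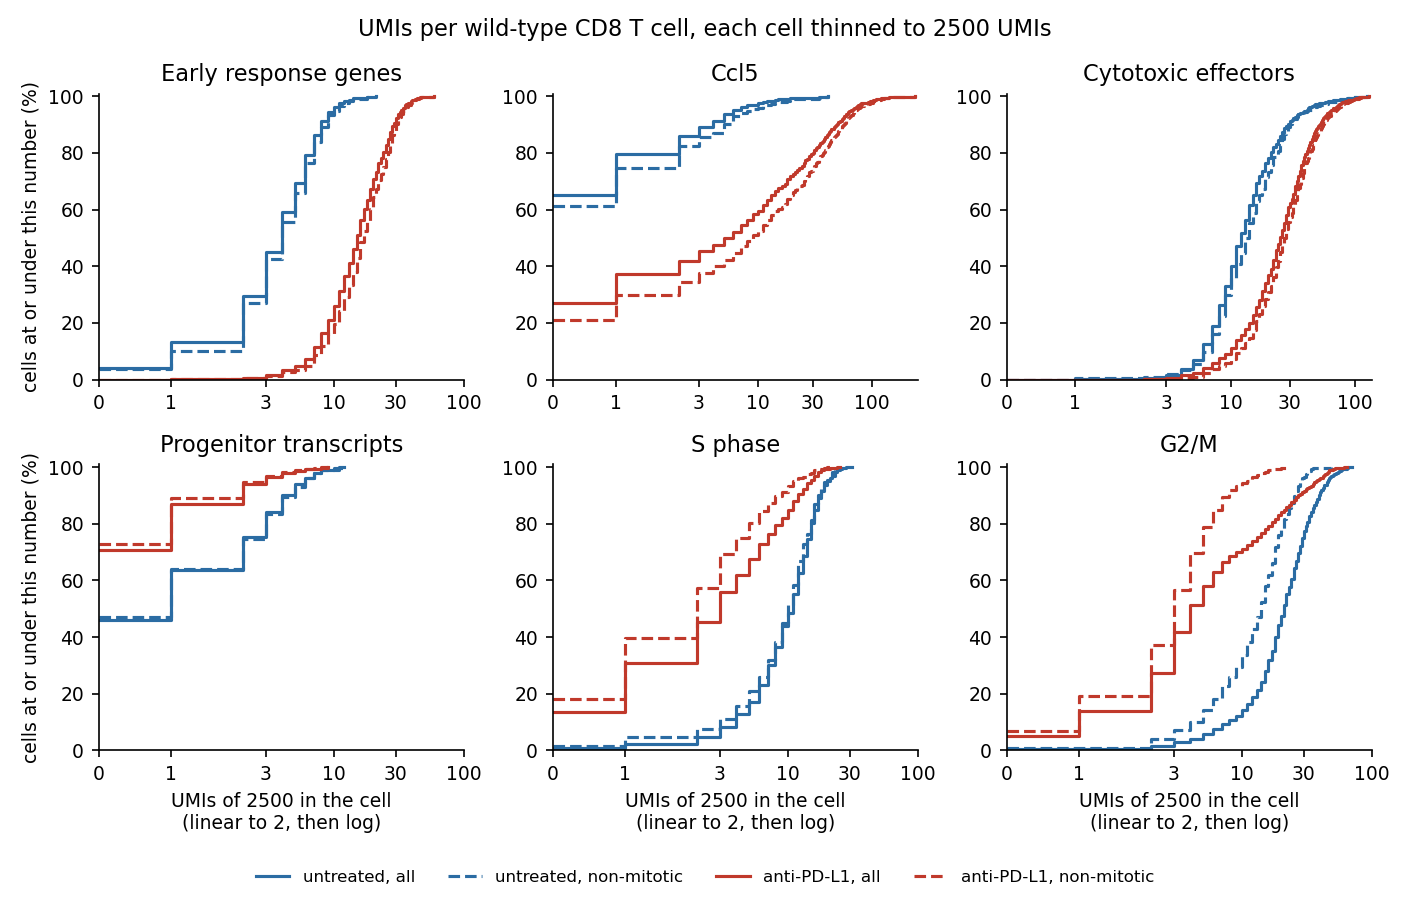
Share of cells (y axis, %) at or under a given number of UMIs (x axis, linear to 2 and then log) of a gene or list in wild-type CD8 T cells thinned to 2500 UMIs, untreated (blue, 914 cells) and anti-PD-L1 (red, 1237 cells), solid for all cells and dashed for non-mitotic ones. The early response curves lie apart over most of their range, with medians of 4 and 15 UMIs, whereas for Ccl5 27.1% of treated cells stay at 0.

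Receptors for costimulation and cytokines were mostly higher. Of 18 past the floor, 14 were higher and 0 lower, with a median log2 fold of 1.06. Icos, a costimulatory receptor of the CD28 family, stood at 32.1 and 154 CPM, log2 fold 2.26 (2.02 to 2.51), and Cd28 itself at 184 and 356 CPM, log2 fold 0.95 (0.84 to 1.06). Tnfrsf9, the receptor 4-1BB, stood at 267 and 589.9 CPM, log2 fold 1.15 (1.06 to 1.24), and Tnfrsf18, encoding GITR, had a log2 fold of 1.05. Tnfrsf4, encoding OX40 of the same family, was within 1.5-fold at a log2 fold of -0.31 (-0.41 to -0.20). The IL-2 receptor chains Il2ra, Il2rb and Il2rg had log2 folds of 1.03, 0.84 and 0.75. Cish, an inhibitor of STAT5 signalling induced by IL-2, stood at 5.49 and 49.1 CPM, log2 fold 3.16 (2.59 to 3.79), and the kinase gene Pim1 at 47.9 and 267 CPM, log2 fold 2.48 (2.28 to 2.68).

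Inhibitory receptors were higher too, except Pdcd1. Among 13 inhibitory receptor genes, 6 passed the floor, and 5 of them were higher and 0 lower, with a median log2 fold of 1.05. Pdcd1, encoding PD-1 (chr1:94038305-94052553), was within 1.5-fold at 316 (301 to 333) and 397 (383 to 411) CPM, log2 fold 0.33 (0.24 to 0.42). It was found in 51.2% (47.9 to 54.5) of untreated and 53% (50.2 to 55.8) of treated thinned cells, 65.2% and 70.9% unthinned, and 0% and 0% of macrophage-like cells. Ctla4, which competes with CD28 for its ligands, stood at 119.8 and 299 CPM, log2 fold 1.32 (1.19 to 1.46), and Lag3, a receptor for MHC class II, at 251 and 458 CPM, log2 fold 0.87 (0.77 to 0.96). Havcr2, encoding TIM-3, a marker of terminally exhausted cells, stood at 24.7 and 58.4 CPM, log2 fold 1.24 (0.94 to 1.54). UMIs of Havcr2 were in 5.03% (3.71 to 6.66) of untreated and 13.3% (11.5 to 15.4) of treated thinned cells, 8.85% and 23.8% unthinned, and 4.27% and 3.604% of macrophage-like cells. Vsir, encoding VISTA, had a log2 fold of 1.42 and Cd160 of 0.61. Tigit had 4 and 12 UMIs, and Cd274, encoding PD-L1 itself, was below the floor at 4.86 and 12.8 CPM, log2 fold 1.40 (0.73 to 2.11). In the knockout contrast, where 2.74% of all genes were higher, Havcr2 and Vsir were called higher, at log2 folds of 1.30 (1.07 to 1.55) and 0.78. Pdcd1, Ctla4 and Lag3 were within 1.5-fold there, at 0.57 (0.49 to 0.65), 0.49 (0.41 to 0.58) and 0.41.

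Transcripts of progenitor cells were lower and several genes of circulating cells higher. The 17 progenitor and memory genes past the floor thus held 8 higher and 6 lower members, where 10.9% and 21.4% of all genes were. Tcf7, encoding TCF-1, stood at 98.2 (89.5 to 108) and 55.8 (50.8 to 61.1) CPM, log2 fold -0.82 (-1.01 to -0.63), and was found in 20.4% (17.8 to 23.1) of untreated and 10.8% (9.08 to 12.6) of treated thinned cells, 29.2% and 19% unthinned, and 1.71% and 0% of macrophage-like cells. Id3, an inhibitor of E proteins found in progenitors, stood at 43.1 and 10.6 CPM, log2 fold -2.03 (-2.41 to -1.66). Slamf6, a surface marker of the same cells, stood at 109.8 and 54.2 CPM, log2 fold -1.02 (-1.21 to -0.83), and Lef1, a relative of Tcf7, had a log2 fold of -0.62. Dapl1, a transcript of memory-like CD8 T cells, stood at 297 and 79.2 CPM, log2 fold -1.90 (-2.04 to -1.77), and was found in 32.2% (29.1 to 35.3) of untreated and 9.05% (7.51 to 10.8) of treated thinned cells, 37.5% and 12.8% unthinned, and 0.855% and 0% of macrophage-like cells. None of the 5 transcripts Tcf7, Id3, Slamf6, Dapl1 and Lef1 was found in 46.0% of untreated and 70.9% of treated thinned cells.

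These genes were lower in the knockout contrast as well, at log2 folds of -1.26 for Tcf7, -1.35 for Id3, -1.32 for Slamf6 and -1.75 for Dapl1. Klf2, which drives expression of receptors for tissue exit, stood at 76.5 and 189 CPM, log2 fold 1.30 (1.14 to 1.47), and was lower in the knockout at a log2 fold of -0.84 (-0.99 to -0.69). Ccr7, a lymph node homing receptor, and Il7r, the receptor for IL-7, had log2 folds of 1.25 (1.15 to 1.35) and 1.07 (0.77 to 1.39), against -0.37 and -0.19 in the knockout. Satb1, a chromatin organiser, stood at 34 and 141 CPM, log2 fold 2.05 (1.81 to 2.30), with a log2 fold of 0.32 in the knockout. None of Klf2, Ccr7, Il7r and Satb1 was called higher in the knockout contrast, where only 2.74% of all genes were.

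Tcf7 was set beside Gzmb and Ccl5 within single cells, as a description. Gzmb was in 10.8% (6.69 to 16.1) of untreated thinned cells with Tcf7 and 54.7% of those without, and with anti-PD-L1 in 18% (11.9 to 25.6) and 70.2%. Ccl5 was in 10.8% (6.69 to 16.1) of untreated and 44.4% (35.8 to 53.2) of treated cells with Tcf7. In macrophage-like cells Ccl5 was in 22.2% and 50.5%, and the part of free RNA in the shares was not tested. Of cells with Dapl1, 34% without treatment and 33.9% with it had Tcf7.

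Transcription factors of effector and exhausted cells had 9 of 16 members higher and 2 lower, Tox and Batf. Of all genes, 10.9% were higher and 21.4% lower. Tox, the factor that maintains exhausted cells, stood at 114 and 47.8 CPM, log2 fold -1.26 (-1.45 to -1.06), and was found in 22.2% (19.6 to 25) of untreated and 11.2% (9.53 to 13.1) of treated thinned cells, 34.9% and 19.4% unthinned, and 0% and 0% of macrophage-like cells. Id2, which opposes E proteins in effector cells, stood at 210.4 and 553 CPM, log2 fold 1.39 (1.29 to 1.49). Zeb2, a terminal effector factor, had a log2 fold of 1.66 (1.29 to 2.04) and Tbx21, encoding T-bet, of 0.69 (0.40 to 0.997). Bhlhe40 and Irf4 had log2 folds of 1.09 and 0.87. In the library sums Tox was thus lower and Ctla4, Lag3 and Havcr2 higher, and their presence in the same cells was not examined. In the knockout contrast the log2 fold of Tox was -0.43 (-0.65 to -0.21).

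**Figure D4:**
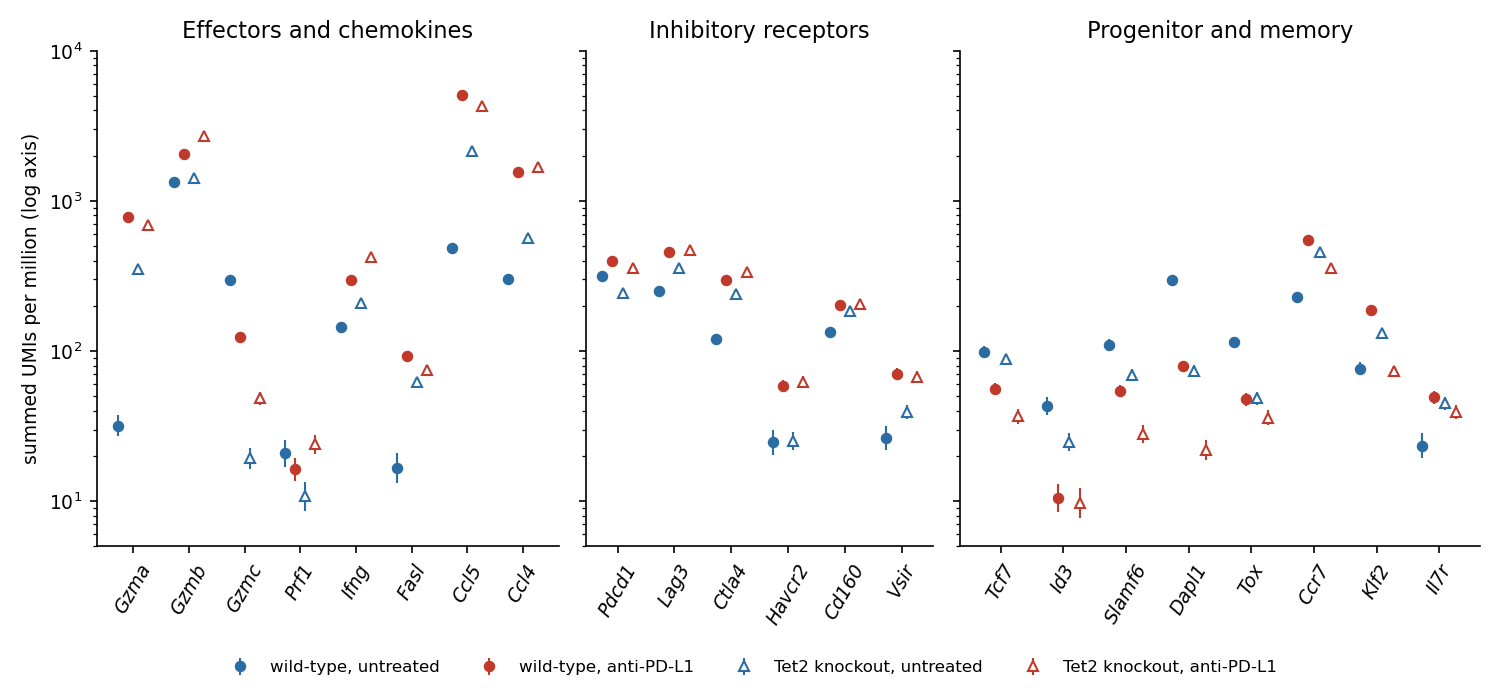
Level (y axis, CPM, log axis) of effector, inhibitory receptor and progenitor genes in CD8 T cells of the 4 libraries, wild-type as circles and Tet2 knockout as triangles, untreated in blue and anti-PD-L1 in red, with 95% Poisson bars for counting error. For Gzma, Ccl5 and Fasl the untreated wild-type library lies below the other 3 libraries, and Tcf7, Id3 and Dapl1 are lower with anti-PD-L1 in both genotypes.

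Chemokine receptor and homing genes were mixed, with 10 of 18 higher, 7 within 1.5-fold and 1 lower. Of all genes, 10.9% were higher and 21.4% lower. Cxcr6, the receptor for CXCL16 that marks resident cells, stood at 68.6 and 319 CPM, log2 fold 2.21 (2.05 to 2.39). It was found in 12.7% (10.6 to 15) of untreated and 45.6% (42.8 to 48.4) of treated thinned cells, 17.9% and 62.7% unthinned, and 0% and 0.901% of macrophage-like cells. Ccr2, a receptor shared with monocytes, stood at 21.1 and 114 CPM, log2 fold 2.44 (2.14 to 2.75). Cxcr3 was within 1.5-fold at a log2 fold of 0.15 (-0.12 to 0.42). Rgs2 and Rgs16, which shorten signalling of such receptors, had log2 folds of 2.19 and 1.85. Cxcr6 and Ccr2 were also called higher in the knockout contrast, at log2 folds of 1.15 (1.04 to 1.25) and 0.96, where 2.74% of all genes were.

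Calcium-binding and membrane-binding proteins of differentiated cells had 7 of 16 members higher and 0 lower. The shares of all genes were 10.9% higher and 21.4% lower. S100a4, an S100 protein of effector and memory T cells, stood at 133 and 507 CPM, log2 fold 1.93 (1.81 to 2.06). Lgals3, encoding galectin-3, stood at 193 and 807 CPM, log2 fold 2.07 (1.97 to 2.17). S100a6 had a log2 fold of 1.37 and Anxa1, encoding annexin A1, of 2.81, while Anxa2, Anxa5 and Vim were within 1.5-fold. Lgals3 was in 95.7% and 97.3% of macrophage-like cells, and the part of their RNA in its level was not tested. Ly6c2, a surface protein of effector and memory T cells and of monocytes, stood at 509.7 and 1524 CPM, log2 fold 1.58 (1.52 to 1.64).

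Interferon-response genes were higher in part. Of 24 past the floor, 14 were higher and 0 lower, with a median log2 fold of 0.67. Isg15, a ubiquitin-like protein, stood at 15.8 and 60.8 CPM, log2 fold 1.94 (1.59 to 2.31). Socs1 and Socs3, feedback inhibitors of cytokine signalling, had log2 folds of 2.06 (1.69 to 2.44) and 2.01 (1.59 to 2.46). Irf1 and Irf7, transcription factors of the response, had log2 folds of 1.53 and 1.04. In macrophage-like cells Isg15 had a log2 fold of 0.13 and the list a median of 0.25, with 5 members higher, where 12.5% of all genes were. MHC class I genes had 3 of 17 members higher, H2-T23, H2-T22 and H2-Q6, and 0 lower, where 10.9% of all genes were higher and 21.4% lower. B2m was within 1.5-fold at a log2 fold of 0.53, and the immunoproteasome genes Psmb8 and Psmb9 at -0.39 and -0.40. The H2 genes are near copies and reads may be split between them.

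The motif of the interferon-stimulated response element, searched as GAAA, 2 bases of any kind and GAAA on either strand, was in the promoters of 8 of the 18 interferon-response genes matched. It was in 7.01% of all higher genes, 3.43% of lower ones, 3.69% of genes past the floor and 3.46% of all genes with a promoter in the table. IRF factors bind this element. Isg15 and Socs1 are shown as called genes whose promoters hold several matches, both on the minus strand, with the matches in capitals. Isg15 has 3 overlapping matches, the first 78 bases before the start, and Socs1 has 2, the first 83 bases before it.
Isg15, chr4:156200819-156201068: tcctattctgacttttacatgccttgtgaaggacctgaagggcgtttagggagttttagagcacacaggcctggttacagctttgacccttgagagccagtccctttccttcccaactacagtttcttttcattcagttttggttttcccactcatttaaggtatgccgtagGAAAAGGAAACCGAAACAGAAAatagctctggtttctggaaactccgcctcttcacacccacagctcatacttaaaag
Socs1, chr16:10785537-10785786: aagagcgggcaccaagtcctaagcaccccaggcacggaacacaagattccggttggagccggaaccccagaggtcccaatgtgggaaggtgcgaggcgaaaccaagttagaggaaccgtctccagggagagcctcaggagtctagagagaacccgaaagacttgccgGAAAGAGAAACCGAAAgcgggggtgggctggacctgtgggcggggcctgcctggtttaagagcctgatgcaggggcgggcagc

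Fewer treated cells carried mitotic transcripts. At least 4 UMIs of the 6 mitotic genes were found in 53.6% (50.6 to 56.6) of untreated and 25.4% (23.1 to 27.9) of treated CD8 T cells, although treated cells were deeper. Thinned to 2500 UMIs, the shares were 34.7% (31.6 to 37.9) and 13.6% (11.7 to 15.6). Beside that threshold, 79 untreated and 25 treated cells had 3 UMIs, just outside, and 86 and 18 had 4. In the knockout libraries 41.5% and 34.1% of cells were above it, 24.8% and 17.6% when thinned. The untreated wild-type library was the highest of the 4 for 29 of 29 S phase genes and 24 of 27 G2/M genes.

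Cell-cycle genes were lower with few exceptions. Of 29 S phase genes past the floor, 27 were lower and 0 higher, with a median log2 fold of -0.97. Of 27 G2/M genes 25 were lower and 0 higher, with a median log2 fold of -0.99. Rrm1, the large subunit of ribonucleotide reductase, stood at 159 and 60.8 CPM, log2 fold -1.39 (-1.55 to -1.22). Ccnb1, encoding cyclin B1, stood at 119 and 33.3 CPM, log2 fold -1.84 (-2.06 to -1.63), and Cdc20, which activates the anaphase-promoting complex, at 178 and 50.2 CPM, log2 fold -1.82 (-1.998 to -1.65). Plk1, a mitotic kinase, had a log2 fold of -2.01 (-2.30 to -1.73). Slbp and Hells, of the S phase list, were within 1.5-fold at log2 folds of -0.27 and -0.28, as were Kif11 and Cenpa of the G2/M list at -0.51 and -0.44.

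S phase genes differed by more among cells outside the mitotic class than inside it. In non-mitotic cells, where 11.7% of all genes were higher and 23% lower, 29 of 29 S phase genes were lower with a median log2 fold of -1.49. In mitotic cells, where 9.23% were higher and 15.8% lower, 7 were lower with a median of -0.35. For G2/M genes, 6 of which set the class, 5 of 27 were lower in mitotic cells with a median of -0.20. A thinned non-mitotic cell had a median of 10 UMIs of the S phase list without treatment and 2 with it. Untreated cells under 4 mitotic UMIs thus still carried replication transcripts, at median depths of 3032 UMIs without treatment and 4616 with it.

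Macrophage-like cells of both libraries had the same direction. Their median log2 fold was -1.61 for S phase and -1.58 for G2/M genes, with 27 and 27 members lower, where 25.6% of all genes were. Those counts and that share include any gene with 0 UMIs in both libraries, which was set at a log2 fold of -0.61. Stmn1, a microtubule regulator of dividing cells, was in 42.7% of untreated macrophage-like cells and 7.21% of treated ones. The part of free RNA in those values was not tested. In the knockout contrast the medians were -0.20 and -0.14, with no member of either list called lower, where 1.21% of all genes were.

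Biosynthetic genes were lower in part. Of 17 translation and biosynthesis genes 10 were lower and 1, Slc3a2, was higher, with a median log2 fold of -0.68. Ncl, encoding nucleolin, stood at 1253 and 605 CPM, log2 fold -1.05 (-1.10 to -0.995), and Ran, the nuclear transport GTPase, at 1796 and 857 CPM, log2 fold -1.07 (-1.11 to -1.02). In non-mitotic cells their log2 folds were -0.89 and -1.23, and 6 of the 17 genes were lower, at a median of -0.52, where 23% of all genes were lower. Myc, which drives many of these genes, was within 1.5-fold at a log2 fold of 0.51 (0.26 to 0.76). Glycolysis and oxidative phosphorylation genes were lower in shares near the 21.4% of all genes. Glycolysis and hypoxia genes had 5 of 21 members lower, among them Ldha, encoding lactate dehydrogenase A, at 3154 and 1641 CPM, log2 fold -0.94 (-0.98 to -0.91). Tpi1, triose phosphate isomerase, had a log2 fold of -1.02 (-1.07 to -0.96), while Gapdh, Aldoa and Slc2a1 were within 1.5-fold. Oxidative phosphorylation genes had 16 of 80 members lower and 0 higher.

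Heat shock genes had 4 of 10 members lower and 0 higher, where 21.4% of all genes were lower and 10.9% higher. Their median log2 fold was -0.27, against -0.19 for all genes. Hspa1a, an inducible HSP70, stood at 146 and 44.1 CPM, log2 fold -1.73 (-1.92 to -1.54). UMIs of Hspa1a were in 22.6% (19.97 to 25.5) of untreated and 4.204% (3.16 to 5.48) of treated thinned cells, 28.5% and 6.32% unthinned, and 23.1% and 33.3% of macrophage-like cells. Between the same libraries it was higher in macrophage-like cells, at a log2 fold of 1.79 (1.36 to 2.25), and it was higher in the knockout contrast, at 0.83 (0.68 to 0.97). Hspd1 and Hsp90aa1, a mitochondrial and a cytosolic chaperone, had log2 folds of -1.08 (-1.16 to -0.99) and -1.07 (-1.13 to -1.002). Hspa8 and Dnaja1 were within 1.5-fold, at log2 folds of 0.01 and 0.17.

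The other genes with the lowest folds belonged to several functions. Igfbp7, a secreted growth factor binding protein, stood at 114 and 29.7 CPM, log2 fold -1.95 (-2.17 to -1.72), with a log2 fold of -0.58 (-0.82 to -0.34) in the knockout. Eno3, a muscle-type enolase, stood at 207 and 71.4 CPM, log2 fold -1.53 (-1.69 to -1.39), and Tmem97, a sterol-regulated membrane protein, had a log2 fold of -1.62 (-1.86 to -1.39). Fabp5, a fatty acid carrier, stood at 207 and 58.2 CPM, log2 fold -1.83 (-1.99 to -1.67). Melanoma-like cells had Fabp5 in 83.9% of untreated cells, and over T cells with no UMI of the melanocyte or macrophage genes its log2 fold was -1.79. The genes with the lowest folds were chosen in part for being lower in those T cells. Among the highest, Vps37b, a component of the ESCRT-I sorting complex, stood at 49.2 and 390.4 CPM, log2 fold 2.99 (2.80 to 3.19). Tgif1, a repressor in the TGF-β pathway, had a log2 fold of 3.01 (2.71 to 3.32) and Vgll4, a cofactor of TEAD factors, of 2.62 (2.42 to 2.84).

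Components of the T cell receptor and its nearest enzymes were mostly within 1.5-fold. Of 25, of which 5 are genes of the selection rule, 7 were higher, Cd3e of the rule among them, and 2 lower. Of all genes, 10.9% were higher and 21.4% lower. Lck and Zap70, the first kinases of the cascade, had log2 folds of 0.09 (0.01 to 0.16) and 0.11 (-0.01 to 0.24). The phosphatase gene Ptpn22 was higher at a log2 fold of 0.85 (0.71 to 0.99). Ptpn6, encoding the phosphatase SHP-1, was lower at 273 and 150.5 CPM, log2 fold -0.86 (-0.97 to -0.74).

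Apoptosis and survival genes had 8 of 20 members higher and 1, Bid, lower, where 10.9% of all genes were higher and 21.4% lower. Bcl2l11, the death gene BIM, had a log2 fold of 1.25 (1.03 to 1.48), and Pmaip1, the death gene NOXA, of 1.19. The survival genes Bcl2a1d and Bcl2l1 had log2 folds of 0.96 and 0.72, so genes of opposite function were higher together, while Bcl2 was within 1.5-fold at 0.19. Of 7 Gimap GTPase genes only Gimap3 was higher, at a log2 fold of 0.996 (0.86 to 1.14), where 10.9% of all genes were higher. The median log2 fold of the 7 was 0.13. Dnmt1, the maintenance DNA methyltransferase, and Uhrf1, its partner at replication forks, were lower, at log2 folds of -0.74 and -0.98. Tet2, the gene lost in the knockout, was below the floor at 13.7 and 15.6 CPM. Of 11 mitochondrially encoded genes none was called. Of 83 ribosomal protein genes 10 were higher, a share near the 10.9% of all genes, and 1 was lower, where 21.4% of all genes were. The ribosomal count is uncertain since many of these genes have processed copies that share reads.

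The wild-type contrast held more called genes than the Tet2 knockout contrast. In the knockout 127 genes were higher (2.74%) and 56 lower (1.21%). Of the 503 genes higher in the wild type, 88 were higher in the knockout, 17.5% of the first list and 69.3% of the second. Of the 990 lower ones, 26 were lower in the knockout, 2.63% and 46.4%. Across the 4628 genes, which are not independent, the log2 folds of both contrasts correlated with Pearson r = 0.471 and Spearman rho = 0.457, a description of 4 libraries. Genes higher in both included Gzma, Ccl5, Ccl4, Gzmb and S100a4, at log2 folds of 0.96, 1.01, 1.56, 0.92 and 1.09 in the knockout. Gadd45b and Dusp5 were called there too, at 0.69 and 0.88, while Junb, Rel and Tnfaip3 were within 1.5-fold at 0.16, 0.30 and 0.51. The untreated libraries differed in those genes: by the median difference of log2(CPM + 1), the AP-1 and immediate early list was 1.45 higher in untreated knockout than in untreated wild-type cells. Between the anti-PD-L1 libraries the same median, knockout minus wild-type, was -0.11. The difference between the contrasts has no replicate check.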

How the data were processed

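UMI counts per cell and gene were made by the authors from 10x 3′ V2 libraries, per the labels' protocols, and were used as deposited. The submitters' processing notes name mm10. The aligner and the counting tool are, for these tables, not given in the sources used here. Most barcodes were listed more than once, and rows whose barcode has 2 hyphens were used. Gene columns whose names ended in -1 to -4, or that the 4 tables did not share, were dropped, which left 28030 genes. Cells needed 500 genes and at most 10% mitochondrial UMIs, no doublet caller was run, and cells over the marker limits were left out by the rule.

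UMIs were summed per library (Python 3.11.15, numpy 2.4.6, scipy 1.17.1, pandas 2.3.3; figures with matplotlib 3.10.9). Fold intervals are exact conditional binomial, CPM intervals Poisson and share intervals Clopper-Pearson, all at 95%. A gene with 0 UMIs in a library was given 3 for a fold. With 0 in both libraries, its log2 fold was therefore set by the library totals alone. In macrophage-like cells that value was -0.61, past 1.5-fold, so genes undetected in both libraries counted as lower there. Melanoma-like and macrophage-like cells had at least 20 UMIs of the melanocyte or macrophage genes of the rule, fewer than 5 or 10 of the other set and no CD3 UMI. TMM factors came from edgeR 4.0.16 in R 4.3.3, and no count model was fitted. The fold and interval code was tested on simulated data. Named genes were the 12 highest and 12 lowest folds among genes of at least 50 CPM in 5% of thinned cells, up to 3 highest and 3 lowest called members of each list, the genes of the selection rule and a set of receptors and effectors. The 12 highest and 12 lowest also had to keep their direction, at least 1.5-fold, in non-mitotic cells, in the other barcode listing and in cells with no UMI of the melanocyte or macrophage genes. Names of the form Gm plus digits or ending in Rik, and markers of other cell types, were left out of those 12 and 12. Genes named as within 1.5-fold and some other list members fall outside that rule and were chosen after their values were seen. Cells, members and lists were chosen with earlier results of these data known. Alternatives were TMM, other floors, the other barcode listing, stricter selection, thinning, equal weight per cell, leaving out the highest cell, another mitotic threshold and Xist-positive cells. Promoters on chromosome 18 were left out.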

Additional observations from a re-analysis of the deposited data

Results flagged for a closer look

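For 4 of the named genes the wild-type and knockout contrasts pointed in opposite ways, each at least 1.5-fold. Over all 4628 genes past the floor, 5 were higher in the wild type and lower in the knockout, and 5 the reverse. The difference between the contrasts was not tested because each group was 1 library. The log2 fold of Gzmc, a granzyme gene, was -1.26 in the wild type and 1.33 in the knockout, a difference of -2.59. For Gzmf, its neighbour, the values were -1.24 and 0.79, a difference of -2.03. Hspa1a, an inducible chaperone gene, had -1.73 and 0.83, a difference of -2.56. Klf2, a transcription factor of circulating T cells, had 1.30 and -0.84, a difference of 2.14.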

How the results depend on the processing

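Of 105 named genes called in all cells none changed direction under the 9 settings that could change their folds. Genes named for the highest and lowest folds had to keep their direction in the other barcode listing to be chosen. They also had to keep it in cells with no UMI of the melanocyte or macrophage genes. Neither setting could thus reverse those genes, so their outcome there is no test. TMM moved every log2 fold by the same 0.14, too little to reverse any gene called at 1.5-fold, so it is no test of direction either. The number of genes called depended on the floor and the scaling. With a floor of 50 CPM, 254 genes were higher and 572 lower in all cells, and 261 and 609 in non-mitotic cells. Without a floor, 2785 were higher and 4104 lower in all cells, and 2139 and 4467 in non-mitotic ones. TMM gave 648 higher and 647 lower in all cells, against 503 and 990 without it, and 753 higher and 696 lower in non-mitotic cells, against 543 and 1065, so the balance turned to more higher than lower. Among named genes that fell within 1.5-fold in some setting were Spp1 under TMM, at a log2 fold of -0.57, and H2-Q6 after thinning, at 0.58. Mki67, at -0.61 in the main setting, was at -0.47 under TMM and at -0.35 with the other barcode listing. Cd3e, at 0.63 in the main setting, was at 0.54 over cells with no UMI of the melanocyte or macrophage genes. The log2 fold was 3.42 for Fosb and -2.48 for Ccnb1 after thinning, and -2.43 for Gzmf over cells with no UMI of the melanocyte or macrophage genes. With the other barcode listing it was 4.10 for Zc3h12a and 0.61 for Ifng. The non-mitotic share of untreated cells, 46.4%, was 51.4% over cells with no UMI of the melanocyte or macrophage genes, 42.9% with at least 5 CD3 and 3 CD8 UMIs, 42.6% with at least 1000 genes and at most 5% mitochondrial UMIs, 65.3% after thinning, and 28.8% when under 2 mitotic UMIs were required. The treated share, 74.6%, was 86.4% after thinning and 68.7% under 2 mitotic UMIs. In cells with Xist and no Y-linked UMI, an alternative chosen after seeing the data, 495 genes were higher and 967 lower. The alternative of cells with an OT-I V segment was not run, since 13 and 39 cells were under the 50 required. Depth limits Prf1, Tigit, Cd274 and Tet2, all under the floor. No paired analysis was possible because each group was 1 library.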
